A study of Mus musculus with 12 samples.

Results

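SSEA-1- cells are the cells of a reprogramming culture that do not carry the surface sugar antigen SSEA-1 and that the study follows as its unsuccessful route. They were compared here at day 16 (D16S-) and at day 12 (D12S-) after the start of reprogramming, over the 12131 of 24098 listed genes with at least 1 FPKM (fragments scaled to transcript length and library size) in either library. Both libraries came from mouse embryonic fibroblasts (MEFs) with an IRES-EGFP reporter behind Oct4. Both had been infected with pMXs retroviruses for Oct4, Sox2, Klf4 and c-Myc (OSKM), grown in serum-replacement FF medium with LIF, ascorbic acid, bFGF and CHIR99021 without feeder cells or passage, and sorted as SSEA-1-. The comparison cells were D0 (the uninfected fibroblasts), D3, Thy-1+ and Thy-1- cells of days 6 and 9 (D6T+, D6T-, D9T+, D9T-), SSEA-1+ cells of the same late days (D12S+, D16S+), iPSCs and mESCs. Each of the 12 conditions was 1 library of polyA RNA, so the differences have no replicate check and no p-value is given.

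Reprogramming of fibroblasts runs through a loss of mesenchymal genes and a gain of epithelial genes before the endogenous pluripotency genes come on, and many cells leave this path. SSEA-1 (the Lewis x trisaccharide) marks the cells that stay on it, while the remaining cells are a mixed population defined only by the absence of the antigen. In such a bulk library, a change in the share of a cell type and a change in RNA per cell cannot be told apart. Differences are given as log2(FPKM + 1) at day 16 minus day 12, and "higher" or "lower" means at least 2-fold apart on this scale.

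From day 12 to day 16, 288 genes were higher in the SSEA-1- cells, which is 2.37% of those compared, and 76 were lower, which is 0.626%. A 4-fold difference was reached by 16 genes upwards and 10 downwards. The median difference over all genes was -0.01, and 89.7% of genes lay within 1.5-fold. Interferon-gamma-type genes, antigen presentation genes, simple epithelial keratins and epithelial junction genes stood out among the lists read: 48 of their 76 compared genes were higher. The genes of DNA replication and of mitosis lay on the other side, with 64 of 67 below zero, although only Tk1 was 2-fold lower.

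**Figure D1:**
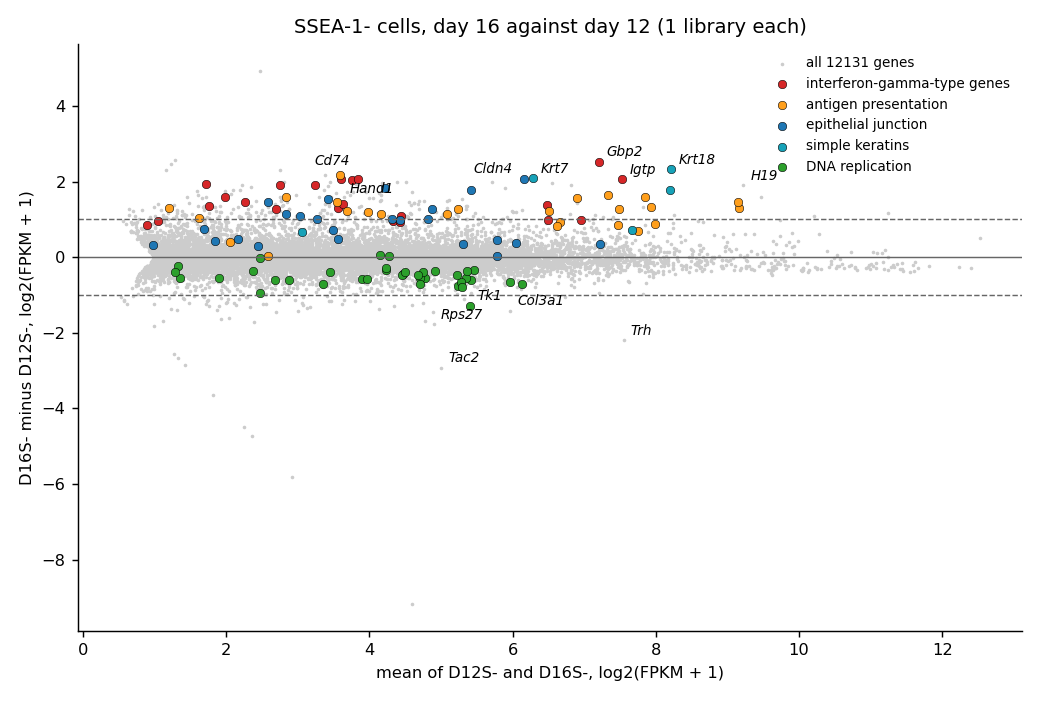
Difference between D16S- and D12S- (vertical, log2 of FPKM + 1) against the mean of both libraries (horizontal) for 12131 genes, 1 library each, with 5 gene lists coloured and dashed lines at 2-fold. Interferon-gamma-type, antigen presentation, keratin and junction genes sit above zero at all levels and DNA replication genes mostly just below it, and the farthest grey points are microRNA and snoRNA genes.

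The sort was checked on markers. The 7 pluripotent markers (Nanog, Esrrb, Zfp42, Dppa5a, Tdgf1, Dppa3 and Tdh) summed to 130 and 137 FPKM in D12S- and D16S-, while D12S+ and D16S+ had 2009 and 4543. The 9 fibroblast markers summed to 702 and 455 FPKM in the SSEA-1- libraries, against 258 and 36 in the SSEA-1+ libraries and 7315 in D0. The sum of the 7 epithelial markers rose from 400 to 1444 FPKM between D12S- and D16S-. This put the D16S- sum above that of D16S+ (945) and just below that of iPSCs (1600). Most of the D16S- sum came from the keratin pair Krt8 and Krt18, with Krt18 at 664 FPKM, against 259 for D16S+. All 5 simple keratins exceeded their D16S+ level, but only 6 of 24 epithelial junction genes did. The sum therefore does not rank D16S- above D16S+ for epithelial genes in general. The SSEA-1- libraries of both days thus held both fibroblast and epithelial markers and little of the pluripotent ones. Whether the same cells carried both kinds cannot be read from bulk libraries. The depth of the libraries was not given in the sources used here. The spacing of low values put D16S- at 0.931 times the depth of D12S-, and the total of all FPKM values was 528438 in D12S- and 525173 in D16S-. The intervals that cuffdiff wrote beside the values spanned a median of 100% of the value on either side in both libraries for genes of at least 10 FPKM. No gene had intervals that were apart.

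Interferon gamma is a cytokine mainly of lymphocytes that acts through the receptor chains Ifngr1 and Ifngr2 and the kinases Jak1 and Jak2. Its target promoters often hold the gamma-activated sequence (GAS), written here as TTCNNNGAA, and Irf1 and its relatives bind repeats of GAAA, searched here as GAAANNGAA (IRF). Their targets include the guanylate-binding proteins (Gbp) and immunity-related GTPases (Igtp, Irgm, Iigp, Tgtp), which attack the vacuoles of intracellular parasites, and the genes that load peptides on the major histocompatibility complex (MHC). In the stretches printed next, matches to either motif, on either strand, are in capitals. The stretches come from the promoters of genes of these lists that were higher in D16S- and held a match. They are RefSeq sequences in build GRCm38.p6 and run 5′ to 3′ on the strand of the gene; the files themselves use mm9.
Gbp2, chr3:142620543-142620662, plus strand: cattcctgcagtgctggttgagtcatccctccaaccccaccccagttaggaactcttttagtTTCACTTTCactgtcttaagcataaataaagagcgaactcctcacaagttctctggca
Igtp, chr11:58199436-58199555, plus strand: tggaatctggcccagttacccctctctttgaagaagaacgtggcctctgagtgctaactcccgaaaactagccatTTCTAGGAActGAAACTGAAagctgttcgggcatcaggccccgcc
Tgtp2, chr11:49064213-49064332, minus strand: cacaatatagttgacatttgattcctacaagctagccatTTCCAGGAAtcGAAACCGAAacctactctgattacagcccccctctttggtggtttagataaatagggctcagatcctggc
Cd274, chr19:29367318-29367437, plus strand: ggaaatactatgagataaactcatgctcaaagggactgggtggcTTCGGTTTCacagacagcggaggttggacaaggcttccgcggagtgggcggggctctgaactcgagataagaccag
Psmb8, chr17:34198075-34198194, plus strand: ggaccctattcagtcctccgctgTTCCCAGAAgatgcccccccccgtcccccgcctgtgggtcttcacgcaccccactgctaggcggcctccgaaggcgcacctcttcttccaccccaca
B2m, chr2:122147548-122147667, plus strand: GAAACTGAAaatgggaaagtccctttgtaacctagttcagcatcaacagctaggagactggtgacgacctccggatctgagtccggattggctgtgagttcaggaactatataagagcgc

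In Igtp, Tgtp2 and Irgm2 the GAS and IRF matches stood 2 bases apart, in that order. Over the 250 bases before the start, 13 of the 15 interferon-gamma-type genes with a promoter entry held an IRF match, which is 86.7%, and 8 held a GAS match, which is 53.3%. The same letters were found in 7.16% and 7.18% of all 27025 promoters of the table, and in 5.98% and 5.80% of the 9161 compared genes with an entry. Of the 19 antigen presentation genes with an entry, 4 held an IRF match and 2 a GAS match. Among the 175 higher genes with an entry, an IRF match was found in 25 (14.3%) and a GAS match in 19 (10.9%). Among the 48 lower genes with an entry, 4 (8.33%) held an IRF match and 5 (10.4%) a GAS match. The GAS share was thus nearly the same in higher and lower genes. The 4 simple keratin genes with an entry held neither. A match is a stretch of letters and not a measured binding site. The letters of a promoter do not depend on the libraries. The shares of a list of interferon-gamma-type genes therefore describe the list and are no result about D16S-.

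All 22 interferon-gamma-type genes that reached 1 FPKM were above zero, 16 of them by 2-fold or more, with a median difference of 1.40 against -0.01 over all genes. Gbp2 had 60.5 FPKM in D12S- and 353 FPKM in D16S-, a difference of 2.53. In the other libraries Gbp2 lay between 0.116 FPKM (mESCs) and 68.0 FPKM (D16S+), so D16S- stood apart from all 11. Igtp had 89.7 FPKM in D12S- and 376 FPKM in D16S-, with 177 FPKM in D9T+ as the next highest library and 2.04 FPKM in iPSCs. Batf2, a leucine zipper factor that can associate with Irf1, went from 2.00 to 13.9 FPKM and was at or below 3.61 FPKM in the other 10 libraries. Cxcl10, a chemokine that draws activated T cells, went from 5.96 to 28.4 FPKM, a level below the 31.7 FPKM of the D0 fibroblasts. Gbp4 went from 5.62 to 26.5 FPKM, and Gbp8 from 4.48 to 20.9 FPKM. Tgtp2, whose near-identical neighbour Tgtp1 can share its reads, went from 4.89 to 23.9 FPKM. Both Tgtp2 values lay above their own cuffdiff limits, which were 0 to 0.529 FPKM in D12S- and 0 to 19.7 FPKM in D16S-. The listed locus of Tgtp2 also did not overlap the annotated gene, so its values are uncertain.

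The table lists 11 Gbp genes. Of these, 10 reached 1 FPKM, and 9 of these were higher: 4 genes lie in a cluster on mouse chromosome 3 and 6 in a cluster on chromosome 5. The exception was Gbp7, at 13.5 and 26.9 FPKM (difference 0.95). These paralogs resemble each other, so the split of reads among them is uncertain, but every compared member of both clusters was above zero. Cd274 (PD-L1), a ligand that restrains T cells, went from 2.48 to 12.1 FPKM. Ido1, a tryptophan-degrading enzyme, went from 0.679 to 5.38 FPKM, and Socs1, an inhibitor of Jak kinases, from 6.56 to 17.5 FPKM.

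The upstream genes of the pathway were read next. Ifngr1 was at 23.7 FPKM in D12S- and 28.2 FPKM in D16S-, and Ifngr2 was at 14.5 and 12.9 FPKM. Jak1 was at 20.5 and 24.7 FPKM, and Jak2 at 3.51 and 5.07 FPKM. Irf1 was at 87.4 and 174 FPKM, a difference of 0.98, without reaching 2-fold. Transcripts of the cytokine itself, Ifng, were at 0.162 FPKM in D12S- and 0.959 FPKM in D16S-, below the limit of 1 FPKM in both. The next highest value of Ifng was 0.449 FPKM in D9T+. The type I cytokine Ifnb1 was listed at 0 in both libraries. Of the 33 compared genes of the broader interferon-stimulated list (Ifit, Oas, Mx, Isg15 and others), 28 were above zero, with a median of 0.36. Their highest value of all 12 libraries was in D16S- for 17 of the 33. Only Ifit3 (7.36 and 18.5 FPKM) and Rsad2 (2.74 and 7.32 FPKM) were higher by 2-fold. Among the 5 genes below zero, Oas2 had a difference of -0.85 and Mx2 one of -0.43. Many genes of both lists answer both kinds of interferon.

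Antigen presentation genes were above zero in 25 of 25, with 18 higher and a median of 1.22. The MHC class I heavy chain H2-K1 had 339 FPKM in D12S- and 941 FPKM in D16S-, and H2-D1 had 153 and 386 FPKM. Their shared light chain B2m had 364 and 903 FPKM. The highest of the other 10 libraries for B2m was D9T+ at 431 FPKM, and iPSCs and mESCs had 16.4 and 10.4 FPKM. The immunoproteasome subunits that cut peptides for class I differed by 1.59 (Psmb8, 132 and 398 FPKM) and 1.58 (Psmb9, 68.1 and 205 FPKM). Tap2, part of the peptide transporter, differed by 1.22 and its partner Tap1 by 0.93. Nlrc5, the transactivator of class I genes, went from 6.04 to 18.5 FPKM. In D16S- these genes were at their highest: 23 of the 25 had their highest value of all 12 libraries there. Reads of the class I genes are hard to assign because the genes are near copies of each other, and multi-mapped reads had been removed, so single H2 values are uncertain.

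Of 8 compared class II genes, which professional antigen-presenting cells carry, 6 were higher; this set was drawn up after the values were seen. The members under 2-fold were H2-DMb1 (0.87) and H2-DMb2 (0.59). The invariant chain Cd74 had 4.66 FPKM in D12S- and 24.4 FPKM in D16S-, above iPSCs (14) and mESCs (16.4). H2-Ab1 had 3.08 and 11.4 FPKM, and H2-Aa 0.467 and 2.61 FPKM. Their transactivator Ciita stayed under the limit at 0.0765 and 0.453 FPKM. Because leukocytes express these genes, leukocyte markers were read beside them. Of 5 leukocyte markers 2 reached 1 FPKM in either library, and the 5 summed to 73.7 FPKM in D12S- and 137 FPKM in D16S-. Nearly all of the sum was Cd68 (68.3 and 115 FPKM) and Csf1r (5.4 and 19.9 FPKM). In the other libraries the same sum lay between 13.2 FPKM (D6T-) and 70.2 FPKM (D12S+). It was 46.5 FPKM in iPSCs and 48.2 FPKM in mESCs, so it is not a measure of leukocytes alone. The pan-leukocyte gene Ptprc was at 0.00848 and 0.0269 FPKM, while Lyz2 and Tyrobp were listed at 0 in D12S- and stood at 0.509 and 0.897 FPKM in D16S-. The part of leukocytes in the class II and interferon-gamma-type values was not tested.

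Most of these genes lie together. Between the first and last H2 gene of the list on mouse chromosome 17 (chr17:34132956-37411430, mm9), 117 genes were compared, and 27 of them (23.1%) were higher. The 26 H2 genes in this segment held 18 of the 27. The other 91 genes had a median difference of 0.05, close to the -0.01 over all genes. Of these 91, 9 were higher, among them Psmb8, Psmb9, Tap2, the ubiquitin-like modifier Ubd and the complement gene C2, and 3 were lower (Ly6g6d, Ly6g6f and Notch4).

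**Figure D2:**
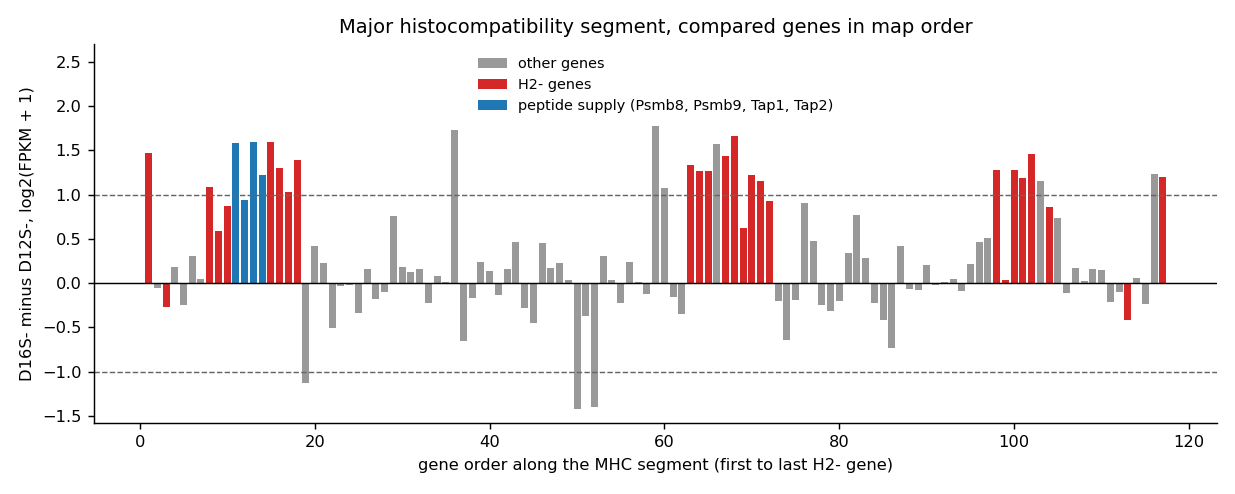
Difference between D16S- and D12S- (vertical, log2 of FPKM + 1) for the 117 compared genes of the MHC segment in map order (horizontal), with H2 genes in red and peptide supply genes in blue. High bars come mostly in 3 runs that coincide with H2 and peptide supply genes, and the genes between them scatter around zero.

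The second group of higher genes was epithelial. Simple keratins are the intermediate filaments of single-layered epithelia, where Krt8 pairs with Krt18 and Krt7 with Krt19. All 5 compared members were above zero, with a median of 1.77. Krt18 (chr15:101858647-101862457, mm9) went from 132 to 664 FPKM, below the 711 FPKM of iPSCs and above the 259 FPKM of D16S+. Its neighbour and partner Krt8 (chr15:101827142-101834773) went from 159 to 543 FPKM, its highest value of all 12 libraries. Krt7 went from 36.9 to 161 FPKM, against 0.352 FPKM in D0. Krt19 (158 and 261 FPKM) and Krt20 (5.65 and 9.49 FPKM) stayed under 2-fold. The list of stratified epithelium had a median of 0.25, with 3 of 28 genes higher: the keratin Krt17, the 14-3-3 protein Sfn and the transglutaminase Tgm1.

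Epithelial junction genes were above zero in 24 of 24, with 11 higher and a median of 0.86. Claudins, which seal tight junctions, led this list. Cldn4 went from 33.7 to 146 FPKM, Cldn6 from 22.1 to 78.2 FPKM and Cldn7 from 8.79 to 34.1 FPKM. Of all 11 claudin genes that reached 1 FPKM, 6 were higher and none was lower. Cdh1 (E-cadherin), the adhesion molecule whose gain defines the mesenchymal-to-epithelial transition, went from 17.8 to 44.6 FPKM. The 5 keratins were above D16S+ in D16S-, whereas only 6 of the 24 junction genes were. D16S+ had 130 FPKM of Cdh1, 190 FPKM of Cldn4 and 138 FPKM of Cldn6, and only 3 of the 24 junction genes were highest in D16S-. Epcam, a pluripotent and epithelial surface protein, differed by only 0.39 (56.8 and 74.6 FPKM), and the splicing regulator Esrp1 by 0.39 (3.81 and 5.31 FPKM). All 14 compared epithelial regulators were above zero with a median of 0.51, of which Tfap2c (8.63 and 19.2 FPKM) and Ovol1 (1.23 and 3.58 FPKM) were higher.

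Genes of the trophectoderm, the outer epithelium of the blastocyst that founds the placenta, gave a median of 0.80 over 10 compared genes, with 5 higher. Hand1, a transcription factor of trophoblast giant cells and of heart, went from 4.97 to 24.2 FPKM, above iPSCs (13.3) and all other libraries. Plac1 went from 3.31 to 10.9 FPKM and Gata2 from 4.71 to 10.8 FPKM. Krt7 and Tfap2c, given with the epithelial genes, are also on this list. The defining factors were low: Cdx2 was at 0.0429 and 0.391 FPKM, Elf5 at 0.435 and 1.11 FPKM, and Eomes at 0.938 and 1.23 FPKM. Sums of so few genes at this level do not name a cell type.

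Imprinted growth genes were higher as single genes rather than as a list, whose median was 0.14 over 21 genes. H19, a maternally expressed noncoding RNA (chr7:149761434-149764048, mm9), went from 307 to 1152 FPKM, the highest of all libraries. Its neighbour Igf2, the paternally expressed growth factor, went from 46.7 to 184 FPKM, close to the 192 FPKM of iPSCs. Cdkn1c, an inhibitor of cyclin-dependent kinases whose gene also lies on chromosome 7, went from 24.7 to 64.7 FPKM, and Peg10 from 22 to 65.7 FPKM.

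Of 19 contractile genes 18 were above zero, 5 were higher and the median was 0.76. Des went from 5.38 to 18.2 FPKM, Tpm1 from 206 to 447 FPKM and Cnn1 from 1.56 to 4.22 FPKM, whereas Acta2 differed by 0.94. Myl4, an atrial and embryonic myosin light chain, went from 2.52 to 12.9 FPKM, far below the 107 FPKM of D0. Targets of Nrf2, the regulator of the oxidative stress response, were above zero in 21 of 23 with a median of 0.44. Hmox1 (heme oxygenase) went from 405 to 1227 FPKM, the highest of all 12 libraries, and Slc7a11 and Gclm, which supply glutathione synthesis, differed by 1.26 and 1.08. Cytokines and chemokines other than Cxcl10 and its relatives, which are on the interferon-gamma-type list, had a median of 0.49 with 5 of 25 higher: Cx3cl1, Areg, Ereg, Cxcl16 and Ccl8. Of 11 compared Wnt ligands 5 were higher and none lower, led by Wnt7b at 1.39 and 8.01 FPKM. Fabp3, a fatty acid-binding protein, went from 9.43 to 40.5 FPKM and stayed below the 196 FPKM of D16S+. Sept4, a septin, went from 3.91 to 21.1 FPKM and was highest in D16S-.

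The lower genes were fewer, and their levels in the earlier libraries were read as well. Tac2, which encodes the neuropeptide neurokinin B (chr10:127162448-127168823, mm9), had 86.8 FPKM in D12S- and 10.6 FPKM in D16S-, a difference of -2.92. Trh, the thyrotropin-releasing hormone (chr6:92192055-92194644, mm9), had 401 and 86.4 FPKM, a difference of -2.20. Both were near absent in D0, where Tac2 was listed at 0 and Trh was at 0.0373 FPKM, and both were high in the middle of the course. Tac2 was at 99.2 FPKM in D9T+ and 145 FPKM in D9T-, and Trh was at 207 FPKM in D9T+ and highest in D12S+ at 458 FPKM. The calcium pump Atp2a3 (47.7 and 14.3 FPKM), the kinases Pim2 (47.9 and 16.8 FPKM) and Prkcb (12.0 and 4.41 FPKM), the embryonic globin Hbb-y (27.1 and 9.93 FPKM), Dmrtc2 (36.5 and 14.6 FPKM) and the calcium channel subunit Cacna2d2 (17.7 and 7.0 FPKM) were also highest in the Thy-1- cells of day 6 or 9. Over all 76 lower genes, 46 (60.5%) had been at least 2-fold above D0 in both day 9 libraries, against 9.07% of all compared genes and 64 of the 288 higher genes (22.2%). D9T- was the highest of the 12 libraries for 24 of the 76, and D12S- itself for 11. The 76 genes were chosen for a D12S- value above that of D16S-. This choice favours genes that were already high by day 12 and fixes part of these counts.

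Other lower genes were of different kinds. Col3a1, a fibroblast collagen, had 101 and 37.2 FPKM, against 1175 FPKM in D0, and was the only one of 21 collagens that was lower. The thymidine kinase Tk1, which supplies DNA synthesis, had 65.3 and 26.2 FPKM, the lowest value of the 12 libraries. Rps27 had 53.9 FPKM in D12S- and 15.1 FPKM in D16S-. The other 10 libraries lay between 7.56 and 17.7 FPKM for Rps27, so D12S- stood apart and not D16S-, and this ribosomal protein gene has many processed copies. Ly6g6d, Lypd2, Apoa2 and the transcribed pseudogene Pisd-ps1 completed the 15 largest drops among genes of at least 10 FPKM, with differences between -1.42 and -1.29. Of the 76 lower genes, 15 were microRNA, small nucleolar RNA or clone-named genes, as were 26 of the 288 higher ones. Over all 12131 compared genes, 548 were of these kinds, a smaller share than in either group.

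Proliferation genes moved little each but in one direction. Of 37 DNA replication genes 35 were below zero, with a median of -0.54, and of 30 mitosis genes 29 were below zero, with a median of -0.40. The replicative helicase subunit Mcm5 differed by -0.76, thymidylate synthase Tyms by -0.95, and the proliferation antigen Mki67 was at 10.5 FPKM in D12S- and 5.45 FPKM in D16S-. The mean level of the DNA replication list in D16S- was 3.86 on the log2(FPKM + 1) scale, the lowest of the 12 libraries, against 4.37 in D12S- and 5.43 in D16S+. Genes for ribosomal proteins were below zero in 80 of 82, with a median of -0.26. Among 11 Notch pathway genes 10 were below zero, with a median of -0.49, and Notch4 (17.5 and 7.42 FPKM) was lower.

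**Figure D3:**
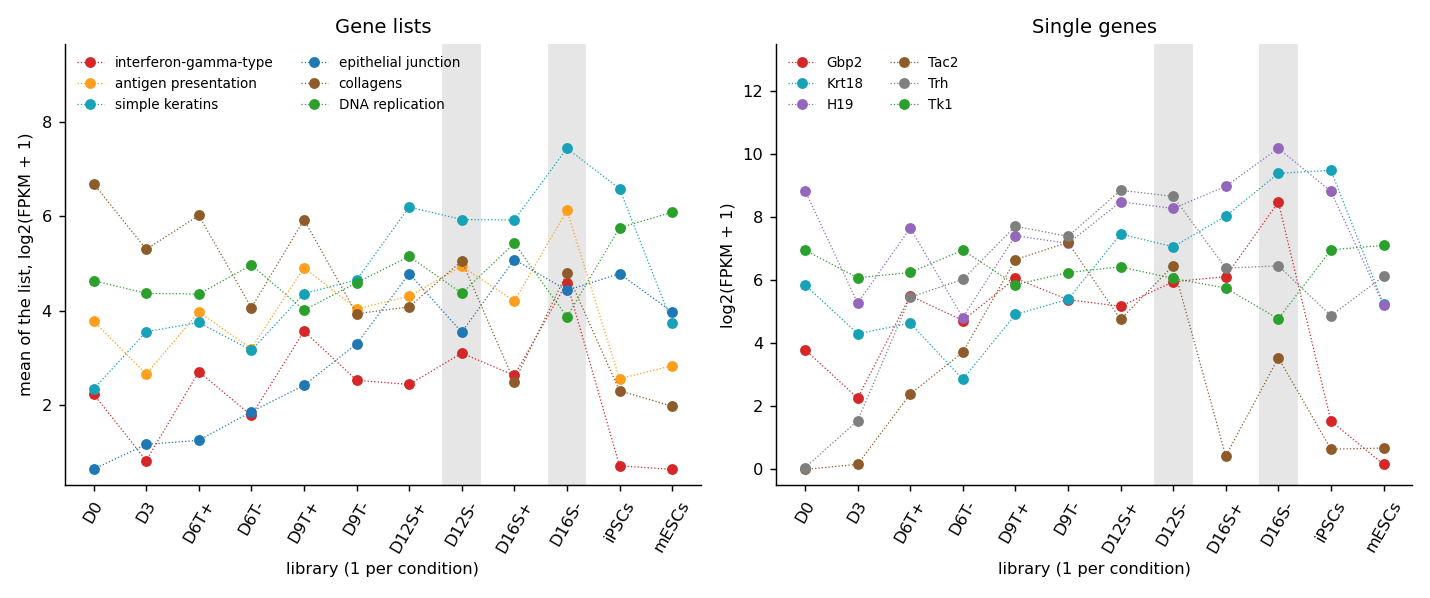
Level on the log2(FPKM + 1) scale (vertical) in each of the 12 libraries (horizontal, 1 per condition), as the mean of 6 gene lists at left and for 6 single genes at right, with D12S- and D16S- shaded. Antigen presentation, interferon-gamma-type and simple keratin means are highest in D16S-, and Tac2 and Trh are high at days 9 and 12 and lower at day 16.

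The genes that are far apart between both ends of reprogramming were also compared. Of the compared genes, 676 (5.57%) were at least 4-fold higher in iPSCs than in D0, and 1184 (9.76%) were at least 4-fold lower. The genes of fibroblasts had a median difference of 0.06 from D12S- to D16S-, with 37 higher and 11 lower. The same 1184 genes had a median of -0.77 in the SSEA-1+ cells, with 4 higher and 409 lower. The genes of iPSCs had a median of 0.17 in SSEA-1- cells, with 78 higher and 10 lower, and 0.29 in SSEA-1+ cells, with 85 higher and 22 lower. The higher genes were thus 11.5% of the iPSC genes in SSEA-1- cells and 12.6% in SSEA-1+ cells, against 2.37% and 2.56% of all compared genes. The filter of 1 FPKM in D12S- or D16S- fixes part of these shares. It left out iPSC genes silent in both libraries, also for SSEA-1+ cells, and let genes enter through 1 library alone. Of the 288 higher genes, 47 were under 1 FPKM in D12S-, and of the 76 lower ones 23 were under it in D16S-. The median depended on the threshold: for the 2127 genes at least 2-fold higher in iPSCs it was -0.03 in SSEA-1- cells. Of the fibroblast-high genes 34.5% were thus lower in SSEA-1+ cells and 0.929% in SSEA-1- cells. The same shares of all compared genes were 6.19% and 0.626%, so the SSEA-1- share was near that of all genes. Of the fibroblast-high genes 3.1% were higher in SSEA-1- cells, against 2.37% of all. In SSEA-1+ cells 0.34% were higher, against 2.56% of all. Of the 23 genes on the pluripotency-specific list 3 were higher (Dnmt3l, Tex19.1 and Cdh1) and 1 was lower (Tdh), with a median of 0.34. Cdh1 is a general epithelial gene and was already given with the epithelial junction genes. Of 13 naive pluripotency factors Tfap2c was higher and Nr0b1 lower, with a median of 0.17. Among these genes, Nanog was at 9.48 and 8.99 FPKM, Tdh was at 57.8 and 26.1 FPKM, Nr0b1 was at 4.53 and 1.59 FPKM, and Dnmt3l went from 3.31 to 10.1 FPKM, far below the 336 FPKM of D16S+. The transcripts of the 4 reprogramming factors, which include the viral copies, differed by -0.07 to -0.21. Pou5f1 (Oct4) was at 2737 FPKM in D12S- and 2383 FPKM in D16S-.

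**Figure D4:**
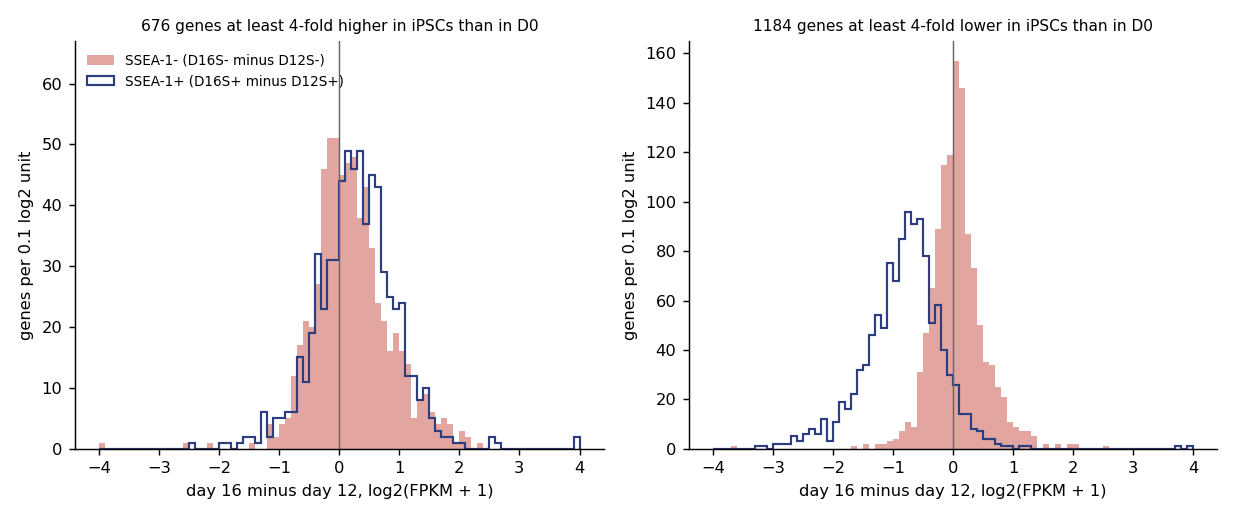
Number of genes per 0.1 log2 unit (vertical) by the difference from day 12 to day 16 (horizontal, log2 of FPKM + 1), for genes at least 4-fold higher (676, left) or lower (1184, right) in iPSCs than in D0. The SSEA-1- and SSEA-1+ distributions overlap at left, and at right the SSEA-1+ distribution lies mostly below zero while the SSEA-1- one is centred near 0.06. Values beyond 4 are drawn at 4.

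The same interval in SSEA-1+ cells shares no library with this one and could be set beside it. Over the same 12131 genes, 311 (2.56%) were higher and 751 (6.19%) lower in D16S+ than in D12S+. Of the 288 genes higher in SSEA-1- cells, 20 were higher in SSEA-1+ cells as well, which is 6.94% of the first list and 6.43% of the second, and 6 were lower. Of the 76 lower genes 38 were lower in both fractions, which is 50.0% of the first list and 5.06% of the second, among them Tac2, Trh, Atp2a3, Pim2, Prkcb, Hbb-y and Col3a1. Whether these shares differ from those of all compared genes was not tested. In SSEA-1+ cells the medians were 0.19 for the interferon-gamma-type list, -0.13 for antigen presentation, -0.27 for simple keratins and 0.33 for epithelial junctions. D16S- was the highest of all 12 libraries for 153 of the 288 higher genes, iPSCs for 48 and D0 for 25. It was the highest for 7.73% of all compared genes, and the choice of the 288 genes by their value in D16S- fixes part of this count.

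**Figure D5:**
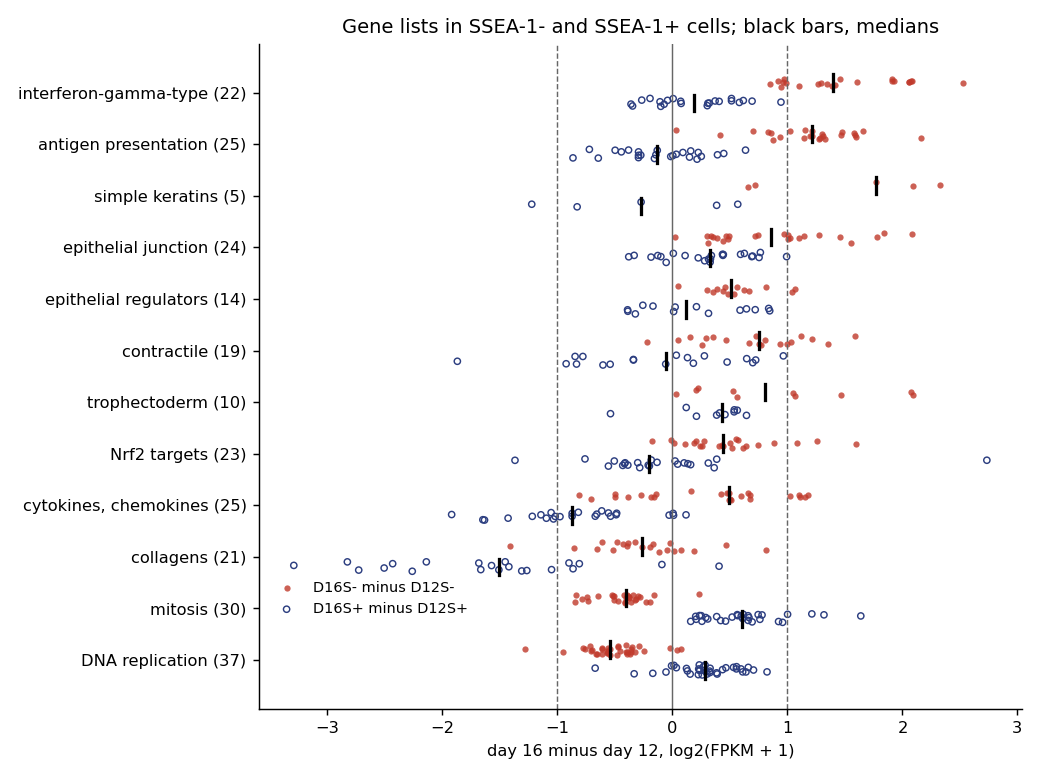
Difference from day 12 to day 16 (horizontal, log2 of FPKM + 1) of each compared gene in 12 lists (vertical, number of genes in brackets), in SSEA-1- cells (filled) and SSEA-1+ cells (open), with black bars at the medians and dashed lines at 2-fold. Interferon-gamma-type and antigen presentation genes lie above zero in SSEA-1- cells and around zero in SSEA-1+ cells, collagens lie lower in SSEA-1+ cells, and mitosis and DNA replication medians are on opposite sides of zero.

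Of the 70 lists, 62 had at least 5 compared genes. The median was at least 1 in 3 of them, between 0.25 and 1 in 19, within 0.25 of zero in 33 and at or below -0.25 in 7. Of the 19, those not yet given were endothelial (0.56), Serpinb (0.44), complement and NF-kB target (0.42 each), muscle (0.39), protease and inhibitor (0.36), leukocyte (0.32), Wnt (0.28), stage surface marker (0.27), and AP-1 and S100 genes (0.26 each). The 33 lists with little displacement included matrix genes other than collagens (-0.15), collagen processing (-0.11), Hox genes (-0.13), oxidative phosphorylation (-0.11), glycolysis and hypoxia (-0.07), endoplasmic reticulum stress (0.06), H3.3 genes and their chaperones (0.09), heat shock (0.14), the mesenchymal factors (0.13) and housekeeping genes (-0.10). Besides replication, mitosis, Notch and ribosomal protein genes, the lists at or below -0.25 were neural genes (-0.35), collagens (-0.27) and replication-dependent histones (-0.26). None of the 10 genes of the primitive streak list reached 1 FPKM.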

How the data were processed

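PolyA RNA of 12 conditions was sequenced as 1 library each (TruSeq kit, Illumina HiSeq). According to the study's methods and labels, the authors aligned reads to mm9 with STAR, removed reads with many mismatches or several loci, and made the deposited FPKM values and their confidence limits with Cuffdiff; versions, annotation and the scaling between libraries are not given in the sources used here. Column names were matched to sample titles, and 0 columns of values were left without a sample. D16S- and D12S- were compared as log2(FPKM + 1) over genes with at least 1 FPKM in either, without a test. A fold on this scale understates the change of low genes. The 7 genes without an OK status in either library include 0 of those called 2-fold apart. FPKM carry no counts. A microRNA or snoRNA shorter than its fragments has no reliable FPKM, so such genes are given as counts. With 1 library a side there is no biological spread to set a difference against.

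The gene lists and the comparison were chosen with earlier results of these data known, and no list median is independent evidence. Genes named outside the lists are the 15 largest differences in each direction among genes of at least 10 FPKM and a locus of at least 300 bases, leaving out microRNA, snoRNA and clone names; genes of any list may be named. Older symbols were matched through RefSeq synonyms (11 matched, 1 not). Positions are from GENCODE M1 (mm9). Promoters were matched by symbol, 1 entry per gene. Calculations used Python 3.11.15 with pandas 2.3.3 and were tested on simulated data. Alternatives were another pseudocount, filter, fold threshold and scaling; those for single genes, the median-of-ratios scaling of the iPSC and D0 genes and the count without ribosomal protein and short RNA genes were added after seeing the data. Some genes of the lists are not reported by name here.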

Additional observations from a re-analysis of the deposited data

Results flagged for a closer look

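The following lists had medians on opposite sides of zero, each by at least 0.25 on the log2(FPKM + 1) scale, from day 12 to day 16 in SSEA-1- and in SSEA-1+ cells. With 1 library per condition, none of these differences between the sorted fractions was tested. Cell cycle lists had medians below zero in SSEA-1- and above zero in SSEA-1+ cells. DNA replication genes had medians of -0.54 and 0.28, and mitosis genes -0.40 and 0.60. All other such lists had medians above zero in SSEA-1- and below zero in SSEA-1+ cells. Simple keratins had medians of 1.77 and -0.27, where both values are the single gene Krt8. Of the 5 keratins 2 were above zero in SSEA-1+ cells, Krt18 (0.57) and Krt7 (0.38), and these had the largest differences in SSEA-1- cells.

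Inflammatory lists were among them. Medians were 0.49 and -0.87 for cytokines and chemokines, 0.42 and -0.45 for targets of NF-kB, 0.42 and -0.79 for complement genes, 0.36 and -0.26 for interferon-stimulated genes, and 0.32 and -0.67 for the 5 compared leukocyte genes. The immediate early AP-1 genes had medians of 0.26 and -0.86, proteases and their inhibitors 0.36 and -1.06, muscle genes 0.39 and -0.57 and S100 genes 0.26 and -0.92.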

How the results depend on the processing

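No paired analysis was possible because each condition had 1 library, so leaving out a replicate was not possible either. With a pseudocount of 0.1 FPKM, 473 genes were higher and 168 lower in D16S-, in place of 288 and 76. A threshold of 1.5-fold gave 809 and 438 genes, and 4-fold gave 16 and 10. A filter of 5 FPKM left 49 lower genes. The other scalings and omissions moved neither count by over 1.5 times. The median-of-ratios scaling shifted all differences by 0.02.

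Of 29 list medians at least 0.25 from zero, 28 kept their sign under the 4 or 5 alternatives run for each, and the replication-dependent histones did not. For 7 of the 62 lists the filter of 5 FPKM left fewer than 5 genes and was not run. The interferon-gamma-type median was 1.798 with a pseudocount of 0.1. The trophectoderm median was 1.16 with that pseudocount, 1.27 with a filter of 5 FPKM and 0.54 without a filter. Without a filter, genes near 0 enter, and the medians were 0.010 for complement, 0.0043 for leukocyte, 0.13 for endothelial, -0.041 for neural, 0.034 for muscle, 0 for replication-dependent histone, 0.044 for Serpinb and -0.15 for Notch genes. The other 291 list values and the 8 for genes 4-fold apart between D0 and iPSCs moved by less than 0.25, but the iPSC-high median changed sign, from 0.17 to -0.03, with 2-fold in place of 4-fold. Of the single genes, Batf2 (2.74) and Myl4 (2.31) differed by more with a pseudocount of 0.1. Low genes are limited by depth, which is unknown here.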

Other observations

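Among the 288 genes higher in D16S-, several are known from the placenta and were picked out after their values were seen. Rhox6 had a difference of 1.83 and Rhox9 one of 1.49, and Esx1, another X-linked homeobox gene, one of 1.60. Cyp11a1, which starts steroid synthesis, and Prl2a1, a prolactin family hormone, differed by 1.52 and 1.53. The X chromosome held 15 of the 288 higher genes (5.21%), against 3.02% of all compared genes. It also held 5 of the lower genes (6.58%), so this share was not particular to the higher ones. Chromosome 17, which carries the MHC, held 36 higher genes (12.5%) and 6 lower ones (7.89%), against 5.11% of all compared genes. Of these 36, 27 were the higher genes of the MHC segment given above.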
